A study of Mus musculus with 13 samples.

Results

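Pulmonary surfactant is a film of phospholipid and protein that lowers surface tension at the air-liquid surface of the alveolus. It is made by alveolar type 2 (AT2) cells, stored in their lamellar bodies, secreted, and then taken back up for reuse. The 10 genes described here encode 4 surfactant proteins (Sftpa1, Sftpb, Sftpc and Sftpd), 4 proteins that build or serve the lamellar body and the alveolar lining (Abca3, Lamp3, Napsa and Slc34a2), a fatty acid transporter (Cd36) and a transcription factor of AT2 cells (Etv5). They were chosen by gene symbol as genes of the AT2 secretory programme. The rule that lists them uses no measured value, but the list was drawn up with earlier results of these data known. All 10 symbols were found among the 32544 gene symbols of the count table, and all 10 were among the 12496 genes that passed the filter on low counts and were tested.

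The study asked how inhaled oxygen changes protein turnover in lung, heart and brain. In this RNA series it compared 7 normoxic with 6 hyperoxic lung libraries. Every library came from the lung of a WT C57BL/6J male mouse, bought at 7 weeks of age and kept for 5 days in 21% oxygen (normoxia) or 80% oxygen (hyperoxia). The labels give 7 weeks as the age, while the paper states a higher age range for all its experiments. The age at exposure is therefore not certain. No other allele or agent is given for either group, the lungs were perfused with cold saline and frozen, and RNA of the whole tissue was sequenced from transcript 3′ ends by Quant-seq. The labels do not say in words that each library is a separate animal, so the p-values measure the spread between libraries, which may in part be technical.

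Total counts ran from 1607111 to 3387736 in normoxia and from 2029006 to 4540288 in hyperoxia. A count of 3, taken as the floor for counting error, was worth 0.656 to 1.84 CPM, the counts of a gene scaled to a fixed library total. The library hyperoxia replicate 1 stood apart. Its log2 CPM profile correlated at 0.721 to 0.833 with the other 12 libraries, which correlated at 0.854 to 0.967 with each other. In that library 6.45% of all genes tested lay at least 3 log2 units below the mean of the other hyperoxic libraries. Comparisons are therefore given with and without it. The markers of 7 lung cell types or states listed further on were present in every library, at a summed level of at least 292 CPM per list.

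The surfactant proteins have separate tasks. SP-B and SP-C (Sftpb, Sftpc) are small hydrophobic proteins that spread phospholipid at the surface. SP-A and SP-D (Sftpa1, Sftpd) are water-soluble collectins that bind microbes and lipid, and club cells of the airways also make SP-A, SP-B and SP-D. The homeodomain factor NKX2-1 and forkhead factors are known to bind the promoters of several of these genes.

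The short promoter stretches that follow show where the letters of 2 such binding motifs stand in these genes, so that the genes can be compared at the level of sequence. RefSeq promoter sequences of GRCm38.p6, from 250 bases before to 50 bases after the start site, were given for 7 of the 10 genes, in 8 promoters since Etv5 has 2. Both strands were searched for CTCAAG (the core of NKX2-1 sites) and for TGTTTAC (a forkhead motif), and no promoter held both. Of all 32851 promoters of the same length, 15.9% held CTCAAG and 3.65% held TGTTTAC. Among the 8 promoters, 2 held the first and 2 held the second. Capitals mark the motif, and each stretch of 30 bases reads 5′ to 3′ on the strand of the gene.
Sftpa1, chr14:41131610-41131639, plus strand, motif beginning 166 bases before the start site: ttctgtgccaccCTCAAGggttctaagtgc
Sftpb, chr6:72304498-72304527, plus strand, motif beginning 100 bases before the start site: acctggagggctCTCAAGacacaggcaaac
Sftpb, chr6:72304583-72304612, plus strand, motif beginning 15 bases before the start site: aagagcccatgaCTCAAGtagggtactaag
Lamp3, chr16:19706439-19706468, minus strand, motif beginning 92 bases before the start site: gaagaggtaagTGTTTACtttctcactatg
Etv5, chr16:22439735-22439764, minus strand, the motif read on the opposite strand and beginning 183 bases before the start site: ctgaagacaggGTAAACAagaggtgatggg
The promoters of Abca3, Slc34a2 and Cd36 and the second promoter of Etv5 held neither run of letters. Sftpa1 and Sftpb both carry CTCAAG, and their log2 fold changes in hyperoxia were −1.69 and −0.38. A match of letters describes the sequence and does not show that a factor was bound.

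Hyperoxic lungs held less RNA of 7 of the 10 genes and more of none. Sftpa1, Sftpc, Abca3, Lamp3, Slc34a2, Cd36 and Etv5 were lower at an adjusted p under 0.05 (edgeR's quasi-likelihood test, Benjamini-Hochberg adjustment over all genes tested). By the same test 10.8% of all genes were lower and 11.8% were higher. Without hyperoxia replicate 1, 8 of the 10 genes were lower, Sftpd being the eighth, beside 13.3% of all genes lower and 15.2% higher. The median log2 fold change of the 10 genes was −1.48, or −1.35 without that library, and the median of all genes was −0.03. All 10 fold changes were below 0, as were 52.2% of those of all genes. For 5 genes (Sftpa1, Sftpc, Abca3, Lamp3 and Slc34a2) every hyperoxic library lay below every normoxic one, with or without hyperoxia replicate 1. That pattern held for 5.23% of all genes, and for 7.12% without that library. In RNA of whole lung, fewer AT2 cells and less RNA per AT2 cell cannot be told apart.

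**Figure D1:**
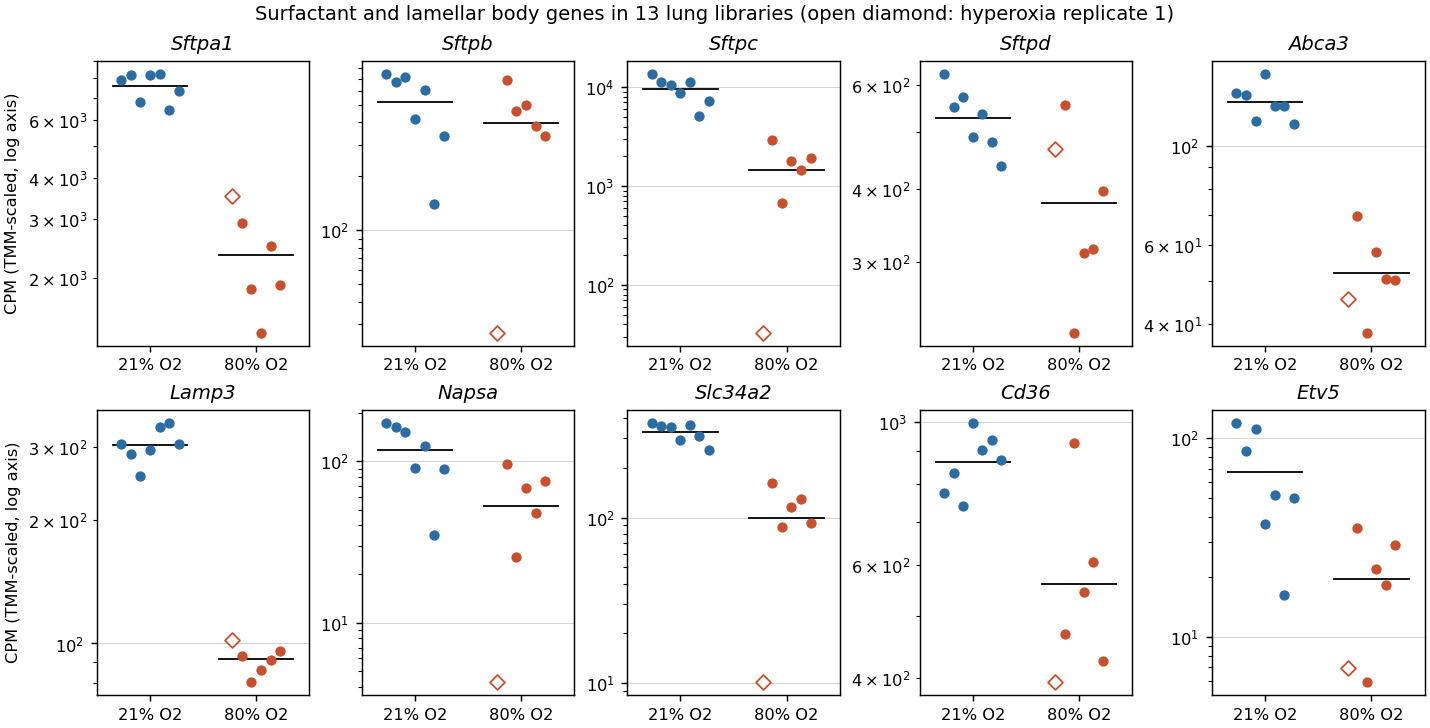
CPM of each of the 10 genes in every library, on a log axis that differs between panels. Points are libraries, the horizontal bar is the group mean, and the open diamond is hyperoxia replicate 1. The groups are separate for Sftpa1, Sftpc, Abca3, Lamp3 and Slc34a2 and overlap for the other 5 genes.

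Sftpc is made almost solely by AT2 cells and is their most used marker. Its level in normoxia ran from 5066 CPM through a median of 10485 to 13578 CPM. In hyperoxia it ran from 32.7 CPM in replicate 1 through a median of 1627 to 2915 CPM in replicate 2. The groups did not overlap, and the lowest hyperoxic library lay far under the other 5, which began at 666 CPM. The mean was 9637 CPM in normoxia (SD 2850, n = 7) and fell to 1465 CPM in hyperoxia (SD 1010, n = 6), which is 15.2% of the normoxic mean. On the log2 scale the fold change was −2.72 (SE 0.60, adjusted p = 0.00418 by edgeR). Without replicate 1 it was −2.45 (SE 0.31, adjusted p = 2.4e-05), with 18.3% of the normoxic mean left.

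Sftpa1 encodes the only SP-A protein of the mouse. It ran from 6398 through 7897 to 8242 CPM in normoxia and from 1360 through 2192 to 3536 CPM in hyperoxia. The groups were separate, and replicate 1, the lowest library for Sftpc, was here the highest of the 6 hyperoxic libraries. Normoxic libraries averaged 7580 CPM (SD 750, n = 7) and hyperoxic ones 2342 CPM (SD 799, n = 6). Its log2 fold change was −1.69 (SE 0.21, adjusted p = 3.5e-05 by edgeR) and −1.83 without replicate 1 (SE 0.17, adjusted p = 1.2e-06).

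Sftpb, whose loss is lethal at birth, overlapped between the groups, unlike Sftpc and Sftpa1. It ran from 141 through 610 to 744 CPM in normoxia. In hyperoxia it ran from 26.8 through 421 to 685 CPM. Only replicate 1 lay below every normoxic library, and the other 5 hyperoxic libraries, from 337 to 685 CPM, lay inside the normoxic range. Hyperoxia over normoxia, the log2 fold change was −0.38 (SE 0.49, adjusted p = 0.622 by edgeR) and −0.11 without replicate 1 (SE 0.31, adjusted p = 0.82). Both values lay within 1 SE of 0, which does not show that the level was the same in both groups.

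Sftpd ran from 437 through 536 to 627 CPM in normoxia and from 227 through 356 to 555 CPM in hyperoxia. In 4 of the 6 hyperoxic libraries it lay below every normoxic library, and replicates 1 and 2 lay inside the normoxic range. The means were 528 CPM (SD 64.2, n = 7) and 379 CPM (SD 119, n = 6). This gave a log2 fold change of −0.48 (SE 0.19, adjusted p = 0.0748 by edgeR). Without replicate 1 it was −0.53 (SE 0.18, adjusted p = 0.0329), which passed the threshold.

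The 4 surfactant protein genes together took 1.28% to 2.27% of all counts in normoxia, with a mean of 1.85% ± 0.34 (SD, n = 7). In hyperoxia they took 0.290% to 0.695%, with a mean of 0.446% ± 0.137 (SD, n = 6). The ranges did not overlap. Scaling the libraries with the 10 genes left out gave a log2 fold change of −2.72 for Sftpc and −1.67 for Sftpa1.

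**Figure D2:**
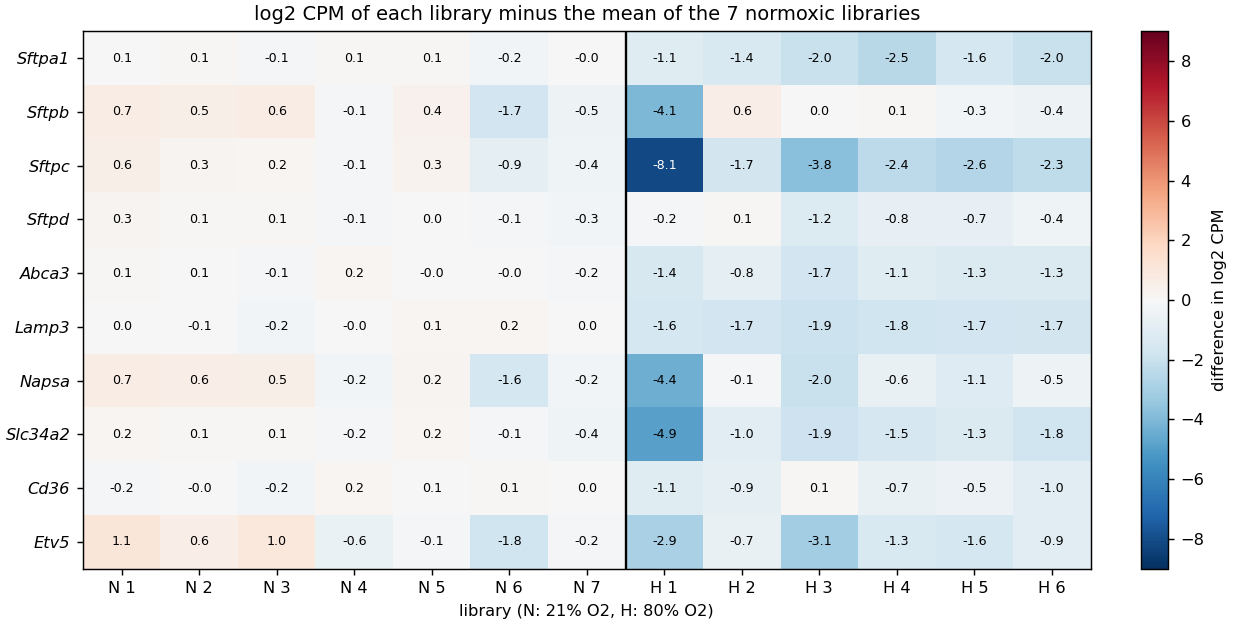
Each cell gives the log2 CPM of a gene in a library minus the mean of the 7 normoxic libraries, for normoxic (N) and hyperoxic (H) libraries by replicate number. Hyperoxia replicate 1 is 8.1 log2 units down for Sftpc and 1.1 down for Sftpa1, and the Lamp3 row is near even across the 6 hyperoxic libraries.

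Among the genes of the lamellar body, Lamp3 changed most evenly. Lamp3 encodes DC-LAMP, a glycoprotein of the lamellar body membrane that mature dendritic cells also carry. It ran from 255 through 305 to 343 CPM in normoxia and from 80.6 through 92.1 to 102 CPM in hyperoxia. The 6 hyperoxic libraries were close to each other, replicate 1 included. Its mean was 304 CPM in normoxia (SD 29.5, n = 7) and 91.5 CPM in hyperoxia (SD 7.43, n = 6). Lamp3 had a log2 fold change of −1.73 (SE 0.12, adjusted p = 2.0e-07 by edgeR) and one of −1.75 without replicate 1 (SE 0.12, adjusted p = 3.2e-08).

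Abca3 encodes the transporter that loads phospholipid into the lamellar body. It ran from 112 through 123 to 145 CPM in normoxia and from 38.2 through 50.3 to 69.9 CPM in hyperoxia. The groups were separate, and replicate 1, at 45.6 CPM, lay among the other hyperoxic libraries. Abca3 had a log2 fold change of −1.27 (SE 0.15, adjusted p = 1.9e-05 by edgeR) and one of −1.22 without replicate 1 (SE 0.14, adjusted p = 1.1e-05).

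Slc34a2 encodes the phosphate transporter of the AT2 cell surface, which clears phosphate from the alveolar fluid. It ran from 255 through 353 to 371 CPM in normoxia. In hyperoxia it ran from 10.2 CPM in replicate 1 through a median of 104 to 162 CPM. The groups were separate, and the 5 other hyperoxic libraries began at 87.2 CPM. For Slc34a2 the log2 fold change was −1.72 (SE 0.37, adjusted p = 0.00354 by edgeR) and −1.47 without replicate 1 (SE 0.16, adjusted p = 6.5e-06).

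Napsa encodes napsin A, an aspartic protease that trims the SP-B precursor. It ran from 34.8 through 124 to 172 CPM in normoxia and from 4.29 through 57.7 to 95.6 CPM in hyperoxia. Normoxia replicate 6, the lowest of its group, lay below 4 of the 6 hyperoxic libraries, so the groups overlapped. Over all libraries the log2 fold change was −1.15 (SE 0.47, adjusted p = 0.0933 by edgeR) and −0.90 without replicate 1 (SE 0.34, adjusted p = 0.0587).

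Cd36 takes up fatty acids, and in lung it is also made by capillary endothelium and macrophages. It ran from 739 through 873 to 995 CPM in normoxia and from 395 through 506 to 927 CPM in hyperoxia. In 5 of the 6 hyperoxic libraries it lay below every normoxic library, and hyperoxia replicate 3, at 927 CPM, lay inside the normoxic range. From a normoxic mean of 865 CPM (SD 89.8, n = 7) it went to 561 CPM (SD 196, n = 6). Its log2 fold change was −0.62 (SE 0.19, adjusted p = 0.0234 by edgeR) and −0.52 without replicate 1 (SE 0.18, adjusted p = 0.0358). The call was lost when any of 5 libraries was left out (normoxia replicates 4 and 5 and hyperoxia replicates 2, 4 and 6), with log2 fold changes of −0.60 to −0.54 and adjusted p-values of 0.052 to 0.0667.

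Etv5 is an ETS-family factor that acts downstream of fibroblast growth factor (FGF) signals and keeps AT2 cells in their state. It ran from 16.2 through 51.5 to 119 CPM in normoxia and from 5.91 through 19.97 to 35.1 CPM in hyperoxia. The groups overlapped, with 2 of the 6 hyperoxic libraries below every normoxic one and all 6 below the normoxic median. The log2 fold change was −1.77 (SE 0.46, adjusted p = 0.0119 by edgeR) and −1.59 without replicate 1 (SE 0.44, adjusted p = 0.0122). Within the libraries named O to S, described further on, it was −0.52 (adjusted p = 0.389).

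**Figure D3:**
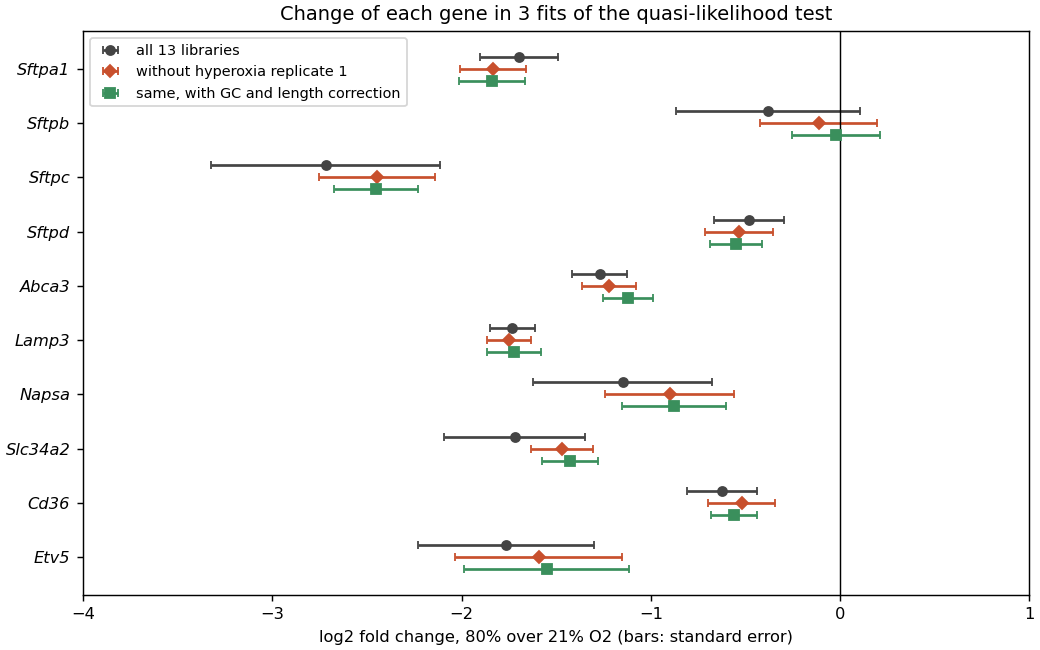
Log2 fold change of each gene, hyperoxia over normoxia, with its standard error as the bar, in 3 fits. These use all 13 libraries, the 12 without hyperoxia replicate 1, and those 12 with a correction for GC content and transcript length. Sftpb is nearest to 0 in each fit and Sftpc farthest from it.

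The genes did not change to the same degree. Each of 6 genes was set against Sftpc as a count ratio within a library, which needs no scaling between libraries, and the 6 differences were tested by a two-sided exact permutation test. Sftpb rose against Sftpc by 2.80 on the log2 scale (adjusted p = 0.00175 over the 6 pairs, exact permutation test), with 6 of 6 hyperoxic libraries above every normoxic one. Sftpd rose against Sftpc by 2.95 on the log2 scale (adjusted p = 0.00175, exact permutation test), again in 6 of 6 libraries. For both the raw p of 5.8e-04 is the smallest that 1716 splits can give. Abca3 rose against Sftpc by 2.19 (adjusted p = 0.00233, exact permutation test) and Slc34a2 by 1.40 (adjusted p = 0.0035, exact permutation test). Without hyperoxia replicate 1 these 4 differences were 2.55, 1.94, 1.29 and 1.04, with adjusted p-values of 0.00379, 0.00379, 0.00568 and 0.00568 by the exact permutation test over 792 splits.

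The ratios of Sftpa1 and Lamp3 to Sftpc depended on hyperoxia replicate 1. Sftpa1 over Sftpc differed by 1.72 and Lamp3 over Sftpc by 1.75 (adjusted p = 0.0192 for each, exact permutation test). Without hyperoxia replicate 1 the differences were 0.65 and 0.79 (adjusted p = 0.0581 for each, exact permutation test). Leaving out normoxia replicate 1, 2, 3 or 5 left the differences at 1.63 to 1.69 for Sftpa1 and 1.66 to 1.73 for Lamp3, with adjusted p-values of 0.0519 to 0.0628 by the exact permutation test, which miss the threshold of 0.05. In replicate 1 of hyperoxia the log2 ratio of Sftpa1 to Sftpc was 6.73, while the other 5 hyperoxic libraries reached at most 1.47.

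**Figure D4:**
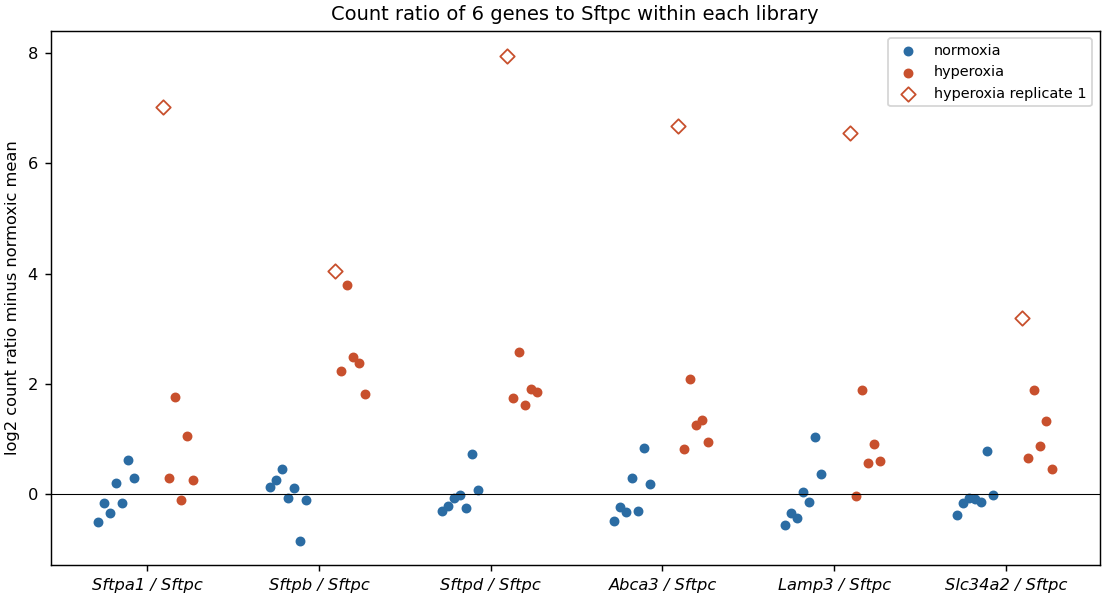
Log2 count ratio of 6 genes to Sftpc within each library, minus the normoxic mean of that ratio. Filled points are normoxic and hyperoxic libraries, and the open diamond is hyperoxia replicate 1. All hyperoxic libraries lie above all normoxic ones for the ratios of Sftpb and Sftpd, and the diamond is the highest point in each column.

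Hyperoxia replicate 1 divided the 10 genes. Against the mean of the other 5 hyperoxic libraries its log2 CPM differed by −5.56 for Sftpc, −4.06 for Sftpb, −3.54 for Napsa and −3.41 for Slc34a2. For Sftpa1, Sftpd and Lamp3 it was 0.80, 0.43 and 0.19 units higher. For Abca3, Cd36 and Etv5 the difference was −0.20, −0.53 and −1.37. Among all genes tested, Sftpc stood at the 0.456 percentile of this difference and Sftpa1 at the 84.4 percentile. The same library had 162 CPM of Scgb1a1, the main club cell secretoglobin, beside a hyperoxic median of 4475 CPM. The part of library quality in these values was not tested.

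Normoxia replicate 6 was also low for some of the genes. Against the other 6 normoxic libraries its log2 CPM differed by −2.05 for Etv5, −1.98 for Sftpb, −1.85 for Napsa and −1.01 for Sftpc. For Lamp3 and Cd36 it was higher by 0.21 and 0.14 units. Over 11884 genes the deviation of this library correlated with transcript GC content at a Spearman's rho of −0.47, which is the largest in size of the 13 libraries. Those of the other 12 lay between −0.31 (hyperoxia replicate 3) and 0.33 (hyperoxia replicate 2), and hyperoxia replicate 1 gave −0.07. Sftpb has the highest GC content of the 10 genes, 58.3%, and Lamp3 and Cd36 the lowest, 38.7% each, beside a median of 50.4% for all genes tested. In normoxia replicate 6 Abca3 (54.8% GC), Sftpd (54.0%) and Slc34a2 (52.1%) deviated by −0.03, −0.15 and −0.08, Napsa (54.9%) and Sftpc (54.8%) by −1.85 and −1.01, and Etv5 (50.9%) by −2.05. The part of GC content in these deviations was not tested. A correction for GC content and length of the whole transcript was chosen after seeing the data. With it 7 of the 10 genes were lower, beside 9.23% of all genes. Once hyperoxia replicate 1 was left out as well, 9 were lower, beside 13.6% of all genes. The correction over all 13 libraries gave Sftpd a log2 fold change of −0.30 (adjusted p = 0.35 by edgeR) and Napsa one of −1.10 (adjusted p = 0.0517). In the fit without replicate 1 Napsa had a log2 fold change of −0.88 (adjusted p = 0.0225 by edgeR), Sftpd one of −0.55 (adjusted p = 0.00563) and Sftpb one of −0.02 (adjusted p = 0.952).

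The library names begin with letters that form 2 runs, B to M (5 normoxic and 3 hyperoxic libraries) and O to S (2 normoxic and 3 hyperoxic). The labels do not say what the letters stand for. Within B to M the log2 fold changes were −1.45 for Sftpa1 (adjusted p = 0.0115 by edgeR), −1.29 for Abca3 (0.0101), −1.63 for Lamp3 (0.00214) and −2.30 for Etv5 (0.0446). Sftpc, Slc34a2 and Cd36 had −3.18, −1.98 and −0.46 there, with adjusted p-values of 0.069, 0.0656 and 0.337, and this run holds hyperoxia replicate 1. Sftpb, Napsa and Sftpd had −0.67, −1.72 and −0.37 within B to M, with adjusted p-values of 0.56, 0.134 and 0.43 by edgeR. Within O to S the log2 fold changes were −1.85 for Sftpa1 (adjusted p = 0.00142 by edgeR), −1.84 for Sftpc (5.7e-04), −1.17 for Abca3 (0.00167), −1.84 for Lamp3 (2.5e-04), −1.34 for Slc34a2 (0.00232) and −0.79 for Cd36 (0.0139). Sftpd had −0.44 there (adjusted p = 0.0707 by edgeR).

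For Sftpb, Napsa and Etv5 the values within O to S were 0.76, 0.029 and −0.52, with adjusted p-values of 0.129, 0.96 and 0.389. This run holds normoxia replicate 6 as 1 of its 2 normoxic libraries, at 141 CPM for Sftpb, 34.8 for Napsa and 16.2 for Etv5, beside 336, 89.5 and 50.0 CPM in normoxia replicate 7. The normoxic means of these 3 genes were lower in O to S than in B to M, at 7.77 against 9.28 log2 CPM for Sftpb, 5.82 against 7.10 for Napsa and 4.87 against 6.22 for Etv5. The interaction of condition with letter run passed an adjusted p of 0.05 (edgeR's quasi-likelihood test) for 0 of the 12496 genes, or 0% of them, and its smallest adjusted p was 0.538. At an unadjusted p under 0.05 it had 1158 of the 12496 genes and 0 of the 10, and 10 genes are too few to read 0 against that share. Its SE was 1.00 for Sftpb, 1.23 for Sftpc, 0.96 for Napsa and 0.91 for Etv5, with 2 normoxic libraries in O to S. That is too wide to tell whether the changes of these genes differ between the runs. No other tool was run for the interaction.

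Of 25 further AT2 cell markers, 24 were tested, and 18 of them fell and 0 rose, with a median log2 fold change of −1.27, beside 10.8% of all genes lower and 11.8% higher. With hyperoxia replicate 1 left out, 20 fell, beside 13.3% of all genes. These include Hc (complement component C5), S100g (a calcium-binding protein) and Egfl6 (a secreted matrix protein), with log2 fold changes of −2.90, −2.46 and −1.77. Their adjusted p-values by edgeR were 3.0e-07, 5.1e-06 and 7.7e-06. The summed level of the list was 8960 to 12231 CPM in normoxia and 3746 to 5154 CPM in hyperoxia, so the groups did not overlap. Nkx2-1, Cebpa and Cldn18 of this list also stand in other lists.

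Of 31 genes whose proteins process surfactant or move and fuse lamellar bodies 28 were tested, 4 rose and 1 fell, with a median of 0.21, beside the same shares of all genes. The difference between this list and the 10 genes was not tested. Leaving out hyperoxia replicate 1 gave 6 and 2, with a median of 0.069, beside 15.2% of all genes higher and 13.3% lower. Atp6v1g1, a subunit of the proton pump that acidifies the organelle, rose by 0.84 on the log2 scale (adjusted p = 0.00835 by edgeR). Anxa7, an annexin that promotes membrane fusion of lamellar bodies, rose by 0.82 (adjusted p = 0.00972). P2ry2, the ATP receptor that triggers surfactant secretion, rose by 1.61 (adjusted p = 2.1e-04), from 12.6 to 38.3 CPM. Pla2g1b, a secreted phospholipase, fell from 13.8 to 2.40 CPM (log2 fold change −2.39, adjusted p = 0.00337).

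Etv5 belongs with FGF receptor and ERK signalling. Of 13 genes of that list 12 were tested, 2 rose and 4 fell, with a median of −0.57, beside 11.8% of all genes higher and 10.8% lower. In the fit without hyperoxia replicate 1, 3 rose and 4 fell, with a median of −0.37, beside 15.2% and 13.3% of all genes. Fgfr2, the epithelial receptor, had a log2 fold change of −2.03 (adjusted p = 7.8e-04 by edgeR), Etv1, an ETS factor, one of −0.72 (adjusted p = 0.0211), and the ligand Fgf7 one of −0.64 (adjusted p = 0.0133). Il17rd, a feedback inhibitor, also fell (log2 fold change −0.91, adjusted p = 0.0295). The feedback inhibitors Dusp4 and Spry4 rose by 1.66 and 1.40 (adjusted p = 0.0156 and 0.013). Fgfr2 was at 2.14 CPM in hyperoxia replicate 1 and had a log2 fold change of −1.79 without it (adjusted p = 2.7e-06). Etv4, another ETS factor, had 0 counts in all 13 libraries.

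Of 16 transcription factors of AT2 cells, 3 fell and 2 rose, with a median of −0.29, counts not far from the 10.8% of all genes lower and the 11.8% higher. In the 12 libraries other than hyperoxia replicate 1, 4 fell and 2 rose, with a median of −0.13. In that fit 13.3% of all genes were lower and 15.2% higher. Nkx2-1, the factor whose motif letters stand in the Sftpa1 and Sftpb promoters, fell from 103 to 53.6 CPM (log2 fold change −0.95, adjusted p = 5.2e-04 by edgeR). The factors Elf5 and Cebpa had log2 fold changes of −0.97 and −0.85 (adjusted p = 0.0217 for each). Sox9, a factor of the embryonic lung tips, rose by 1.61 (adjusted p = 8.8e-05) and Cebpd, a factor of stress and glucocorticoid response, by 1.46 (adjusted p = 0.00238).

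Markers of other cell types and states of the lung are given here beside the 11.8% of all genes that were higher and the 10.8% that were lower (15.2% and 13.3% for the counts without hyperoxia replicate 1), and their part in the results above was not tested. Of 15 pan-epithelial markers 14 were tested, 3 rose (Krt7, Krt18 and Cd24a, by 1.15, 1.03 and 0.71 on the log2 scale) and 0 fell. In the 12 libraries without hyperoxia replicate 1, 7 of 15 rose. Their summed level was 2303 to 2464 CPM in normoxia and 2725 to 3406 CPM in hyperoxia. Of 15 alveolar type 1 markers 2 rose (Akap5 by 1.20 and Lmo7 by 1.19) and 1 fell (Rtkn2, log2 fold change −0.95), with a median of 0.06, which was −0.01 when libraries were scaled by total count alone and −0.12 on the deposited log values. Over the libraries other than hyperoxia replicate 1, 3 rose and 3 fell, with a median of 0.17, and leaving out each library in turn moved the number that fell between 0 and 3. Their summed level was 6634 to 7904 CPM in normoxia and 8158 to 10264 CPM in hyperoxia. Akap5 and Lmo7 made up that difference, since the summed mean of the other 13 was 5502 CPM in normoxia and 4698 CPM in hyperoxia.

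Of 15 markers of the transitional state between type 2 and type 1 cells 12 were tested, 6 rose and 1 (Clu) fell, with a median of 1.23. Once hyperoxia replicate 1 was left out, 14 were tested and 10 rose. Cdkn1a, the cell cycle inhibitor p21, rose by 4.86 on the log2 scale (adjusted p = 1.1e-09 by edgeR), Lgals3 by 1.92 (adjusted p = 1.2e-06) and Hbegf by 1.67 (adjusted p = 1.7e-06), while Clu fell by 0.85 (adjusted p = 0.0214). The summed level was 635 to 931 CPM in normoxia and 3034 to 3886 CPM in hyperoxia. Of these 15 markers, 4 are also in the pan-epithelial list.

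Club cells share Sftpa1, Sftpb and Sftpd with AT2 cells. Of their 14 markers, 7 fell and 0 rose, with a median of −1.22. Over the other 12 libraries 9 fell and 1 rose. Cyp2f2, a club cell cytochrome, had a log2 fold change of −2.71 (adjusted p = 2.4e-04 by edgeR), and the tight junction gene Cldn10 one of −1.29 (adjusted p = 1.1e-04). The matrix protein gene Chad fell from 6.65 CPM to 0.661 CPM, under the floor, and was at least 4.13-fold lower (adjusted p = 4.2e-04) with its hyperoxic level set at 3 counts in the shallowest hyperoxic library. The summed level was 16074 to 55577 CPM in normoxia and 1022 to 12040 CPM in hyperoxia, with the lowest value in hyperoxia replicate 1.

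Cd36 can be read beside capillary and macrophage markers. Of 21 capillary endothelial markers 9 fell and 3 rose, with a median of −0.58, and without hyperoxia replicate 1, 12 fell and 4 rose. Kit and Ptprb fell, with log2 fold changes of −2.65 and −1.16 (adjusted p = 1.2e-05 and 2.3e-05 by edgeR), Aplnr, at 0 counts in 4 of 6 hyperoxic libraries, was at least 8.68-fold lower with all 6 set at the floor of 3 counts in the shallowest of them (which left the median of the list at −0.58), and Cd93, Prx and Apln rose by 2.20, 0.96 and 1.52. The summed level, 7285 to 9434 CPM in normoxia and 6843 to 10019 CPM in hyperoxia, overlapped between groups. That sum includes Cd93, which reached at most 2657 counts in a normoxic library and 14002 in a hyperoxic one. The overlap therefore does not show that the markers were unchanged as a set.

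Of 15 alveolar macrophage markers 6 fell and 1 (Mrc1, by 0.72 on the log2 scale) rose, with a median of −0.15, and without hyperoxia replicate 1, 5 fell and 4 rose, with a median of −0.49. Ear2 fell, with a log2 fold change of −2.04 (adjusted p = 0.00318 by edgeR). Ear1 fell from 10.6 to 1.16 CPM, a mean under the floor, and was at least 6.58-fold lower (adjusted p = 0.00221). Fabp1, at 0 counts in 5 of 6 hyperoxic libraries, was at least 5.53-fold lower at the same floor of 3 counts. Setting both at the bound left the median of the list at −0.15. The summed level was 649 to 951 CPM in normoxia and 292 to 1057 CPM in hyperoxia. Of 18 genes of fatty acid uptake and binding that work with Cd36, 15 were tested, and 2 fell and 0 rose. Those were Gpihbp1, which anchors lipoprotein lipase on capillaries, at −1.53 (adjusted p = 1.2e-04), and the fatty acid binding protein Fabp5, at −0.97 (adjusted p = 1.6e-04). Without hyperoxia replicate 1, 4 of 16 fell and 1 rose. The list's median was 0.042, or −0.029 without that library, −0.025 with scaling by total count alone and −0.20 on the deposited log values. Its summed level was 1483 to 1873 CPM in normoxia and 869 to 1757 CPM in hyperoxia.

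**Figure D5:**
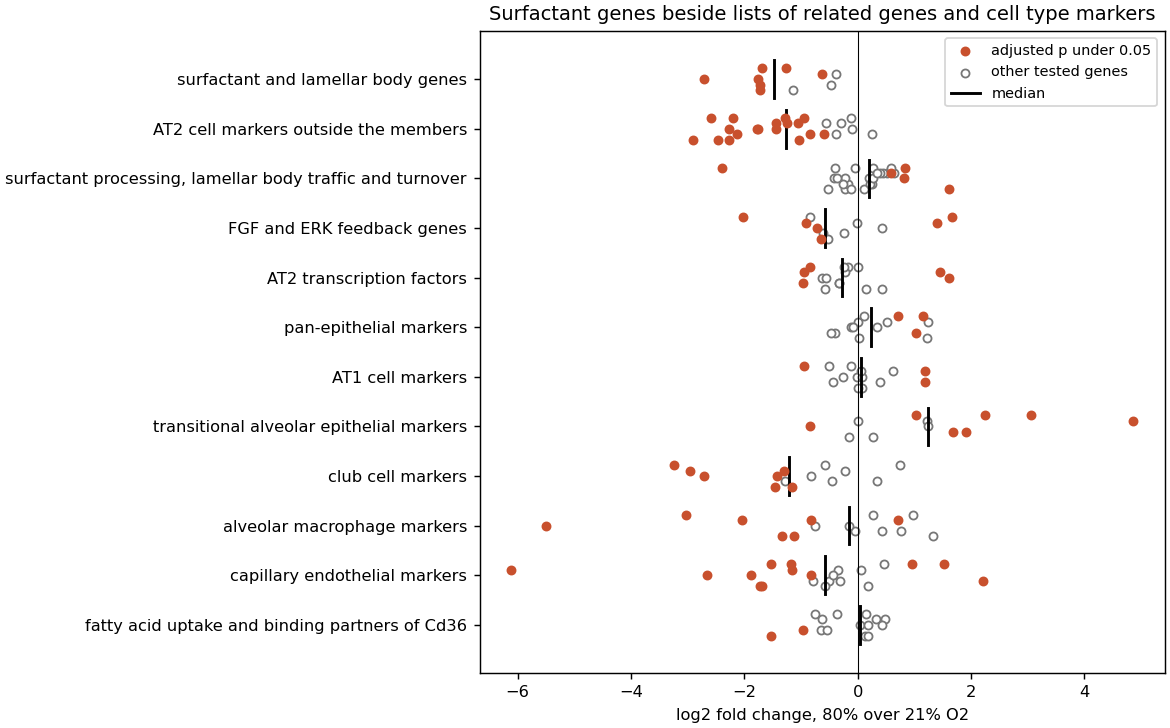
Log2 fold change, hyperoxia over normoxia, of each tested gene of the 12 lists. Filled points have an adjusted p under 0.05, open points do not, and the vertical bar is the list's median. The 10 genes (median −1.48) lie with the other AT2 markers (−1.27), and the genes of surfactant processing and traffic (0.21, or 0.069 without hyperoxia replicate 1) lie around 0.

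Within the groups, the genes varied together only in part. The log2 CPM of each gene, less the mean of its group, was set against the mean of the 4 surfactant proteins treated the same way. These correlations share libraries and scaling and are given as a description. Over 13 libraries Napsa (Pearson's r 0.97, Spearman's rho 0.92) and Slc34a2 (r 0.91, rho 0.84) ran with that mean, Sftpd less so (r 0.13, rho 0.38), and Lamp3 (r −0.38, rho −0.15) and Cd36 (r 0.08, rho −0.25) did not. Over the 12 libraries without hyperoxia replicate 1, Napsa had an r of 0.92 (rho 0.90), Slc34a2 0.75 (rho 0.79), Sftpd 0.82 (rho 0.85), Etv5 0.87 (rho 0.84), Abca3 0.61 (rho 0.43), Lamp3 −0.10 (rho 0) and Cd36 −0.61 (rho −0.64). The mean contains Sftpd itself, and also Sftpa1, which had an r of −0.26 over 13 libraries and 0.59 over 12.

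Among other genes, those most like the mean of the surfactant proteins over 13 libraries, of 10102 considered, included Scgb1a1 (r 0.98), Cxx1b (0.98), Cyp2f2 (0.98) and Rab1b (0.98). Over 12 libraries, of 10218 considered, they were Scgb1a1 (0.98), Slc25a28 (0.96), Cxx1b (0.96), Icam2 (0.95) and Mvb12a (0.95). Cxx1b, Slc25a28, Icam2 and Mvb12a had log2 fold changes of −0.35, −0.30, −0.56 and −0.08, with adjusted p-values of 0.692, 0.549, 0.218 and 0.92 by edgeR. Scgb1a1 fell from 33862 to 4349 CPM (log2 fold change −2.96, adjusted p = 0.00188 by edgeR).

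Each gene lies at a single site in the GENCODE annotation of GRCm38. Sftpa1 (chr14:41131782-41136452, plus strand) and Sftpd (chr14:41172214-41185149, minus strand) are neighbours in the collectin cluster, and Sftpc lies farther along the same chromosome (chr14:70520949-70524081, minus strand). Sftpb lies at chr6:72304610-72314371 (plus strand) and Abca3 at chr17:24351950-24410201 (plus strand). Lamp3 lies at chr16:19653378-19706375 and Etv5 at chr16:22381309-22439719, both on the minus strand. Napsa lies at chr7:44572380-44586862 and Slc34a2 at chr5:53038081-53071664, both on the plus strand, and Cd36 at chr5:17781690-17888801 on the minus strand. The neighbours Sftpa1 and Sftpd had log2 fold changes of −1.69 and −0.48. No gene on the same strand overlaps any of the 10. On the opposite strand Napsa overlaps Gm15396, Slc34a2 overlaps Gm17182 and Abca3 overlaps Gm25618 and D330041H03Rik. These are overlaps of whole gene spans, and overlap of exons was not checked. The strand setting of the counting is not stated, so reads of these pairs may not be told apart where exons overlap.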

How the data were processed

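Quant-seq libraries of whole lung RNA (7 normoxia, 6 hyperoxia, groups and replicate numbers from the labels) were analysed. The authors pseudoaligned the reads with kallisto and deposited whole-number counts per gene symbol, one column per library, with no normalization. They also deposited log10 values, which are log10 of CPM plus 1 by total count. The submitters' processing notes name mm10, kallisto and limma 3.54.2, and the annotation release and the strand setting are not given in the sources used here. Of the deposited columns, 0 belonged to no sample.

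Counts were tested with edgeR 4.0.16 (glmQLFit, glmQLFTest) under R 4.3.3. Libraries were scaled by TMM, filterByExpr kept 12496 genes, no covariate was used, and p-values were adjusted by Benjamini-Hochberg. CPM values use TMM-scaled totals, and log2 CPM a prior count of 2. Each standard error is the fold change on the log2 scale over the root of F. Ratios within a library used counts plus 1. Floors of 3 counts cover counting error only, since the deposited tables show no molecular identifiers. The tests were first run on simulated counts with known changes. DESeq2 1.42.0, limma 3.58.1 (voom, and on the deposited log10 values), other scalings and filters, a replicate block, letter runs and leaving out each library were alternatives.

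The 10 genes and the 11 other lists were chosen with earlier results of these data known. From each list up to 3 called genes per direction, those with the smallest adjusted p, were named, and also the 5 genes most like the surfactant proteins (mean log2 CPM of at least 3) in each set of libraries. Of these, 1 gene is not reported here. Scgb1a1, named by the second rule, is also a club cell marker, and Etv4 and Il17rd were named after their values were seen. Replicate libraries of one condition differed by more than sampling noise in all 36 pairs (chi-square per gene at least 3.79). Promoter sequences of Sftpc, Sftpd and Napsa and protein sequences were not used here.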

Additional observations from a re-analysis of the deposited data

Results flagged for a closer look

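Within each condition, a library was singled out where its gap to the nearest other library, as a share of the range, passed Dixon's critical value for 6 or 7 samples. Of 36 groups of values from 18 results, 11 passed, where chance would give about 1 in 20, or 1.8, and 7 of the 11 were hyperoxia replicate 1. That library was the lowest hyperoxic one for Sftpb (0.7796), Slc34a2 (0.773) and Sftpc (0.6699). It had the highest hyperoxic ratio to Sftpc of Sftpd (0.8469), Abca3 (0.7839), Sftpa1 (0.7384) and Lamp3 (0.7086). The ratios share the count of Sftpc, so these 4 are not separate observations. Normoxia replicate 6 was the lowest normoxic library for Napsa (0.589) and had the highest normoxic ratio to Sftpc of Slc34a2 (0.6867) and Sftpd (0.6277). Normoxia replicate 5 had the lowest total count of its group (0.6117).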

How the results depend on the processing

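Sftpa1, Abca3 and Lamp3 were lower past the threshold in each alternative tried. At this depth all 10 genes lie above the floor in every library, so the spread between libraries limits the comparisons. Sftpd passed the threshold with voom (−0.53, adjusted p = 0.0424), limma on the deposited log values (−0.60, 0.0286), scaling by total count alone (−0.55, 0.0449) and a minimum of 10 counts in every library (−0.55, 0.0413), where Napsa was not tested. Napsa passed with DESeq2 (−1.16, 0.0484), and Cd36 did not pass with no filter (−0.58, 0.0526). Sftpb passed in no alternative, at −0.65 with voom (adjusted p = 0.488) and −0.75 with limma on the deposited log values (0.42). The GC and length correction alone gave Sftpd −0.30 (adjusted p = 0.35) and 1802 genes higher, beside 1473. Together with leaving out hyperoxia replicate 1, which alone brought Sftpd past the threshold with 1934 genes higher, it gave Sftpd −0.55 and Napsa −0.88, both past the threshold, and 2235 genes higher. Scaling by total count moved the median of all genes to −0.10 and the deposited log values to −0.16. The deposited values also changed the split from 1346 lower and 1473 higher to 1729 and 1097, and gave capillary markers a median of −1.02. Within B to M, Sftpc (−3.18), Slc34a2 (−1.98) and Cd36 (−0.46) did not pass and the median of the transitional markers was 0.70. This left 4 of the 10 genes lower, beside 441 of 12724 genes, or 3.47%, lower and 679 higher. Within O to S, Sftpb (0.76) and Napsa (0.029) changed sign, Etv5 (−0.52) did not pass, and the medians of type 1 and transitional markers were 0.41 and 2.15. Beyond the fewer samples in a run, the cause was not tested for any of these. The interaction of Sftpd with the letter run was −0.01, and 0.044 without hyperoxia replicate 1.

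With each library left out in turn, log2 fold changes ran from −0.80 to −0.52 for Cd36, from −0.59 to −0.34 for Sftpd (past the threshold without hyperoxia replicate 1 or 2, adjusted p = 0.0329 and 0.03) and from −1.38 to −0.90 for Napsa (past it without normoxia replicate 6, adjusted p = 0.046). The ratio to Sftpc ran from 0.65 to 2.08 for Sftpa1 and from 0.79 to 2.11 for Lamp3. Between 6 and 8 of the 10 genes were lower, beside 8.45% to 13.3% of all genes.

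Over the alternatives other than leaving out a library, 3.47% to 13.8% of all genes were lower, and 679 to 2235 genes were higher. The counts for the lists stand beside these. Of the further AT2 markers 14 to 20 were lower, 1 to 7 pan-epithelial and 4 to 10 transitional markers were higher, and 5 to 9 club cell markers were lower. Surfactant processing genes higher numbered 1 to 8 and lower 0 to 2, FGF and ERK genes higher 1 to 3 and lower 1 to 5, AT2 factors higher 1 to 2 and lower 1 to 5, and macrophage markers higher 1 to 5 and lower 1 to 7.

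With the replicate number as a block, Cd36 (−0.67, adjusted p = 0.0851) and Etv5 (−1.72, adjusted p = 0.117) did not pass, and 588 genes were lower and 703 higher. Same-numbered libraries correlated at −0.33 to 0.27, with 1 of 6 pairs above 0.1, so the numbers do not pair the libraries, and 1 of the 6 normoxic libraries correlated best with its own number.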
